A study of Rattus norvegicus with 12 samples.

Results

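The enzymes described here attach ubiquitin to proteins or take it off again, and their transcripts were followed in the arcuate nucleus of the hypothalamus (ARC), a region at the base of the brain that governs appetite and body mass. Members were chosen by name: every gene with a probe set that carried 1 symbol alone, where that symbol began with Usp and a digit, Uchl and a digit, Otu, or Ube2. The rule gave 84 genes of 14217 on the arrays, of which 55 were deubiquitinases and 29 were ubiquitin-conjugating enzymes. The deubiquitinases comprised 43 genes of the ubiquitin-specific protease (USP) family, 3 of the ubiquitin C-terminal hydrolase (UCH) family and 9 of the ovarian tumour (OTU) family. The 84 genes had 151 probe sets between them, and each gene was represented by the probe set with the highest mean over all arrays, called its brightest. Of the genes named like deubiquitinases, Usp6nl encodes a GTPase-activating protein, Usp39 a splicing factor, and Otulinl a protein without known deubiquitinase activity.

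Ubiquitin is a small protein that is activated by an E1 enzyme, handed to a ubiquitin-conjugating (E2) enzyme and joined to a target with the help of a ubiquitin ligase. Chains of ubiquitin can send the target to the proteasome for breakdown, or alter its activity, its partners or its place in the cell. Deubiquitinases cut ubiquitin from targets, trim chains and return ubiquitin to the free pool, and in neurons such editing takes part in the turnover of synaptic proteins and receptors.

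RNA was measured in 6 recuperated and 6 control male Wistar rats at 3 months of age, with 1 array per animal. Recuperated rats were the offspring of dams given a diet of 8% protein (w/v) in pregnancy. From postnatal day 3 they were suckled by control dams in small litters of males, to favour growth. Control rats were the offspring of control dams and, also from postnatal day 3, were suckled by control dams in larger litters of both sexes. Maternal diet, litter size and litter sex therefore differed together and cannot be told apart. Both groups ate standard chow after weaning. The ARC was cut from stained frozen sections by laser capture, and its amplified RNA was hybridised to Affymetrix rat expression arrays. The study counts each array as a litter, so the p-values measure the spread between these animals and litters. In captured tissue, fewer cells of a type and less RNA per cell cannot be told apart.

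Levels are log2 signals minus the median of the array, so a value of 0 is the middle of the 31042 probe sets. Each probe set was set only against itself on other arrays, because binding strength differs from one to the next. Correlations between arrays ran between 0.959 and 0.988. Array 4 of the recuperated group stood apart. The 10 measured ARC markers averaged 1.06 on it, against 3.07 to 3.43 on the other 11 arrays, and 9 of the 10 were lowest there. The 6 measured markers of the neighbouring ventromedial nucleus (VMN) averaged 2.90 on it, against -0.15 to 1.25 elsewhere, and 6 of 6 were highest there. Neuronal markers were higher on it as well, at 5.36 against 4.08 to 4.56, with 6 of 7 highest there. Microglial markers were lower, at 0.52 against 1.02 to 1.58, with 7 of 7 lowest there. Markers of tanycytes and ependyma were at -0.20 against 1.11 to 1.76, with 6 of 7 lowest there, and those of oligodendrocytes at 3.84 against 3.18 to 3.60, with 4 of 6 highest there. By group and with array 4 included, the ARC list ranged over 1.06 to 3.43 in recuperated and 3.21 to 3.39 in control animals. An exact two-sided permutation test gave p = 0.0498 for this list and between 0.115 and 0.905 for the other marker lists. These p-values are not adjusted for the number of lists. Of the 10 ARC markers, 7 were above the array median on every array, while Pomc, a defining ARC transcript, was below it on every array. The study reports high expression of Pomc, Agrp, Cartpt and Npy in its captured tissue by RT-PCR. It also reports that Nr5a1, found in the VMN, and Pou3f3, specific to the paraventricular nucleus, were not detected there. Differences are given with all 12 arrays unless array 4 is said to be left out.

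Most of these enzymes gave signals above the middle of the array, which depends on each probe set's binding as well as on its transcript and is given as a description. Of the 84 brightest probe sets, 67 (79.8%) lay above the array median on all 12 arrays, a share that was 53.5% over all genes, and 10 lay above it on none. The 67 comprised 42 deubiquitinases and 25 conjugating enzymes. Uchl1, an abundant neuronal hydrolase, had a median of 5.94 in recuperated and 6.08 in control animals. Usp14, a deubiquitinase of the proteasome, had 5.73 in recuperated and 5.68 in control animals. Ube2c, an E2 enzyme of dividing cells, had -1.87 in recuperated and -1.62 in control animals and was below the array median on each array.

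Recuperated and control animals were then compared across both enzyme classes. A gene was called changed when its fold difference was at least 1.3 and its P from limma was under 0.05. The study used the same limits with P from another test and asked for them under several ways of computing signals, so the calls here are not those of the study. Of the 84 genes, 0 were called higher in recuperated animals, where 0.612% of all genes were called higher. One conjugating enzyme, Ube2s, was called lower, or 1.19% of the members, where 1.21% of all genes were called lower. Unadjusted P was under 0.05 for 2 members (2.38%), Ube2s and the deubiquitinase Otud4, against 2.91% of all genes. After Benjamini-Hochberg adjustment in limma, 0 members and 0 of the 31042 probe sets passed. Recuperated and control values were without overlap in 0 members, where 0.0352% of all genes were higher without overlap and 0.12% lower. These shares were near or below those of all genes.

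The arrays also bounded how far many members could differ. The 95% confidence interval of the difference lay within 1.3-fold on both sides for 33 of the 84 genes (39.3%), where it did so for 24% of all genes. This held for 19 of 55 deubiquitinases (34.5%) and 14 of 29 conjugating enzymes (48.3%). For the other 51 members a difference of 1.3-fold in one direction or both was not excluded at this number of arrays.

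The classes leaned to opposite sides of 0 by small amounts. The deubiquitinases had a median log2 difference of 0.05, recuperated minus control, and 33 of 55 (60%) were higher on average in recuperated animals. The conjugating enzymes had a median of -0.04, and 9 of 29 (31.0%) were higher. Over all genes the median was -0.04 and 39.7% were higher. The median of the conjugating enzymes was thus close to that of all genes, while a smaller share of them was higher. Within the deubiquitinases, the USP family had a median of 0.05, the OTU family 0.07 and the UCH family -0.04. Without array 4 of the recuperated group the deubiquitinase median was 0.03, the conjugating enzyme median -0.03 and that of all genes -0.03. These are descriptions over genes that share the same 12 arrays, and no test was made over either list.

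**Figure D1:**
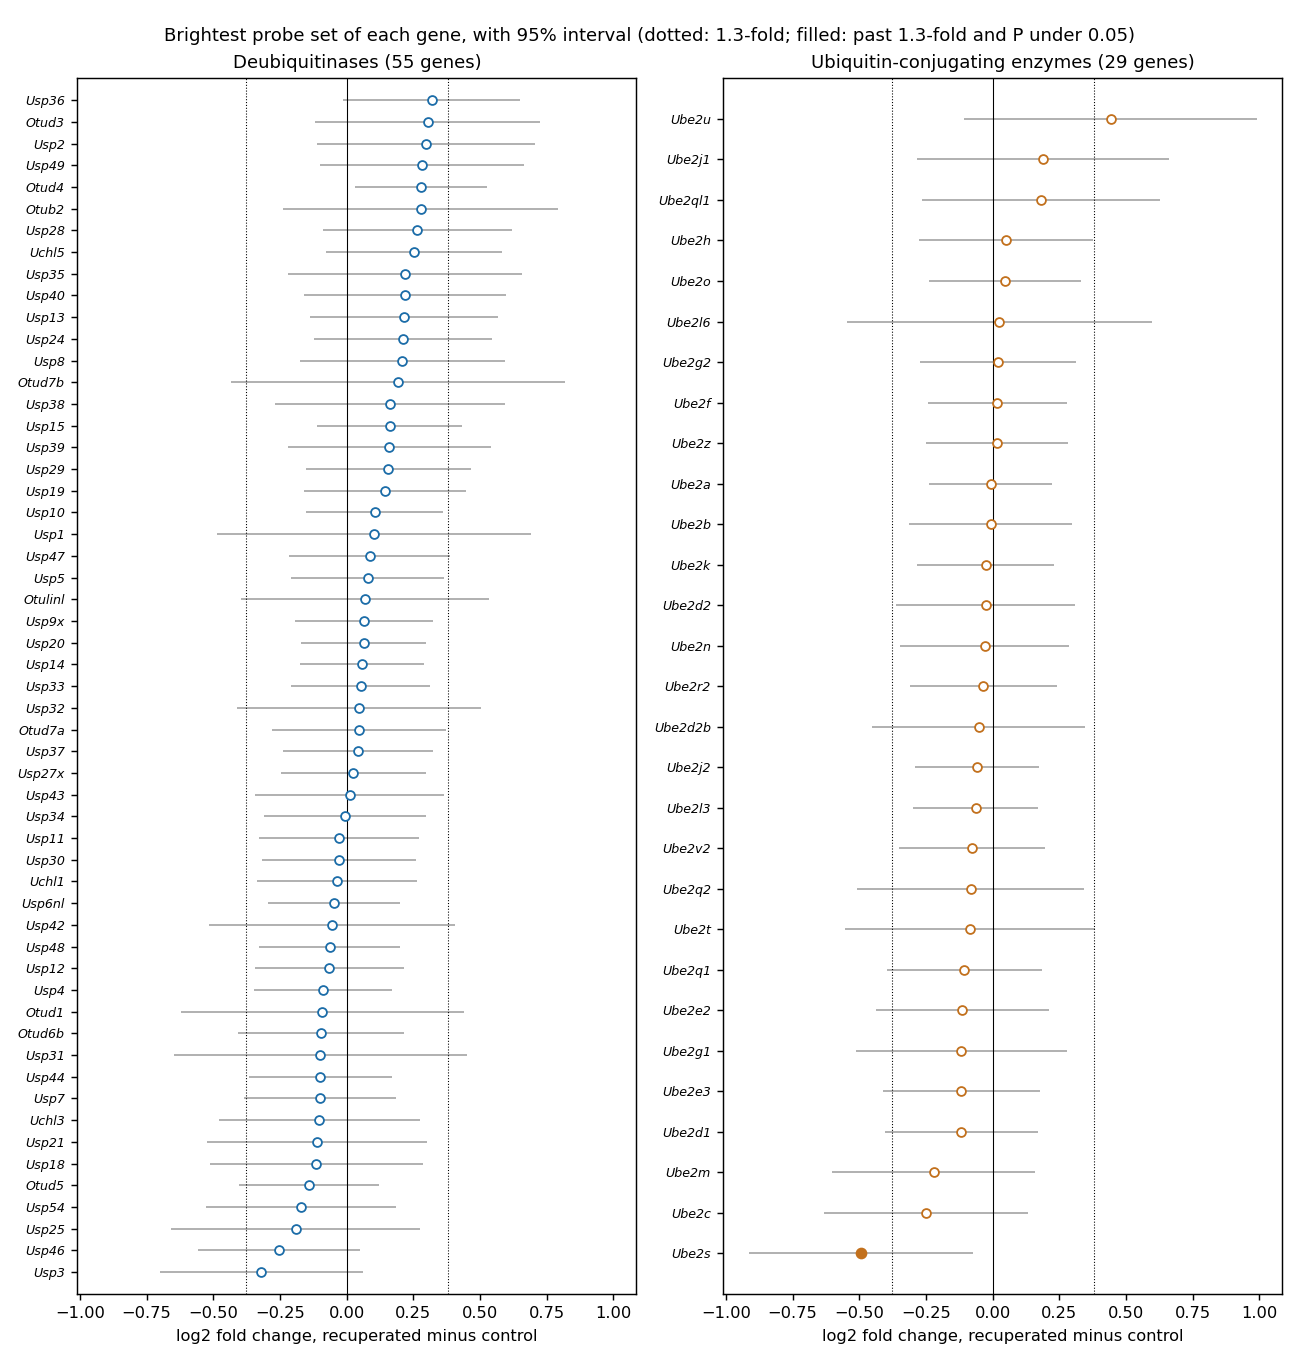
Log2 fold change, recuperated minus control, of the brightest probe set of each of 55 deubiquitinases (left) and 29 ubiquitin-conjugating enzymes (right), with lines for the 95% confidence interval, dotted lines at 1.3-fold and a filled point for a gene past 1.3-fold with P under 0.05 (n = 6 animals each). Ube2s, at -0.49, is the 1 filled point, and the intervals of 33 genes lie between the dotted lines.

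Usp42, a deubiquitinase of p53 in human cells, had 4 probe sets that did not move together. On its brightest, 1385873_at, the 6 recuperated animals had 0.35, 0.63, 0.64, 1.03, -0.42 and 0.64, against 0.36, 0.72, 0.64, 0.03, 0.71 and 0.74 in the control animals. The groups overlapped, with 1 recuperated animal above and 1 below the control range. The difference was -0.06 (SE 0.22, 95% confidence interval -0.52 to 0.41), with p = 0.814 in an exact two-sided permutation test. It moved with single arrays in both directions, to -0.17 without recuperated animal 4 and to 0.12 without recuperated animal 5. It was 0.02 with array quality weights and -0.22 when the 4 probe sets were averaged.

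On a second Usp42 probe set, 1384767_at, recuperated animals had -0.65, 0.39, -0.14, 0.47, -0.54 and 0.67, against 0.64, 1.02, 0.40, 0.81, 1.18 and 1.12 in control animals. Of the 6 recuperated values, 4 lay below every control value and the other 2 lay within the control range. The mean was 0.03 ± 0.56 in recuperated and 0.86 ± 0.30 in control animals (SD, n = 6 each), a difference of -0.83 (SE 0.24, 95% confidence interval -1.33 to -0.32), or 1.78-fold lower. Usp42 was singled out with earlier results of these arrays known, so this difference is given as a description, and its place past the threshold is no independent evidence. It was the largest in size among the 151 member probe sets, and it stayed between -0.96 and -0.63 over the 19 alternative settings run on it.

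The other Usp42 probe sets did not share that shift. On 1398436_at the difference was 0.09 (SE 0.14, 95% confidence interval -0.22 to 0.40), and on 1385874_at it was -0.10 (SE 0.20, 95% confidence interval -0.52 to 0.32). The signal of 1384767_at minus that of 1385873_at ran from -1 to 0.03 in recuperated animals, with a median of -0.4, and from -0.24 to 0.78 in control animals, with a median of 0.34. The spread between the highest and the lowest difference of the 4 probe sets was 0.92. Spreads at least as large occurred in 0.796% of the 4525 genes with more than 1 probe set, and in 3.10% of the 290 genes with 4. Because Usp42 was singled out with earlier results known, these shares too are descriptions and no independent evidence. Where each probe set lies in the Usp42 transcript was not analysed here.

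**Figure D2:**
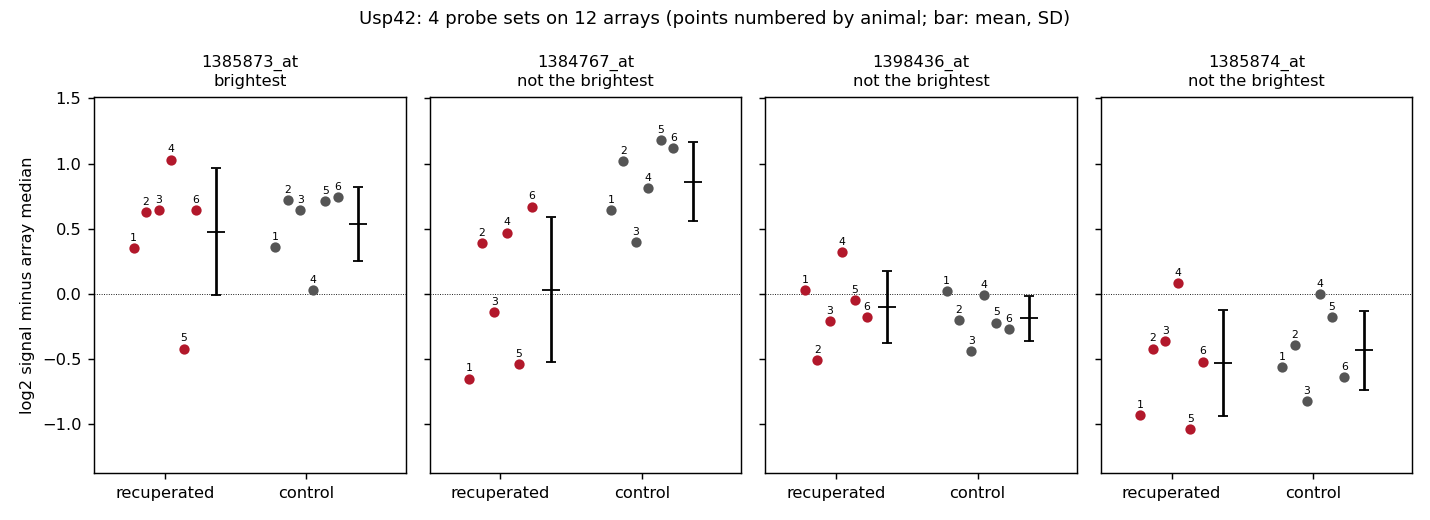
Log2 signal minus array median of the 4 Usp42 probe sets in 6 recuperated (red) and 6 control (grey) animals, with points numbered by animal and bars for mean and SD. On 1384767_at recuperated animals averaged 0.03 and control animals 0.86, while the groups lay over one another on the other 3 probe sets.

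Among the remaining deubiquitinases, Otud4 had the smallest P. It encodes an OTU enzyme linked in human cells to repair of alkylated DNA. Its values were 3.09, 3.51, 3.22, 3.51, 3.33 and 3.43 in recuperated animals, against 3.20, 2.89, 3.04, 2.99, 3.19 and 3.11 in control animals. Of the 6 recuperated animals, 5 lay above every control animal, and recuperated animal 1 lay among them. The difference was 0.28 (SE 0.12), short of 1.3-fold, with an unadjusted limma P of 0.0305 and p = 0.0130 in an exact two-sided permutation test. The adjusted p in limma was 0.999. Without array 4 of the recuperated group the difference was 0.25 with an unadjusted limma P of 0.0593, and the unadjusted P was above 0.05 with 5 other single arrays left out. Its second probe set differed by 0.23.

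Several nuclear deubiquitinases lay near it in size but with wider spread. Usp36, a nucleolar enzyme, had 0.62, 0.95 and 1.47 as the lowest, median and highest value in recuperated animals, against 0.41, 0.75 and 0.85 in control animals. The highest 3 recuperated animals lay above the control range, and the difference was 0.32 (SE 0.16, exact two-sided permutation p = 0.067). Usp3, which removes ubiquitin from histone H2A in human cells, ran the other way, with -1.55, -0.82 and -0.53 in recuperated animals against -0.87, -0.66 and -0.24 in control animals. Its difference was -0.32 (SE 0.18, exact two-sided permutation p = 0.123), and its signal was below the array median throughout. Usp49, a histone H2B deubiquitinase in human cells, differed by 0.28 (SE 0.18), and its 5 probe sets lay between 0.005 and 0.315. Usp28, a stabiliser of Myc in human cells, differed by 0.27 (SE 0.17), with its signal below the array median throughout. None of these 4 genes passed the threshold.

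The deubiquitinases that act on p53 or on its ligase Mdm2 were mixed in direction. Of the 4 listed for that role, 2 were higher on average in recuperated animals, Usp2 and Usp10. Usp7 and the brightest probe set of Usp42 were lower. Usp10, named to complete that list, differed by 0.105 (SE 0.12). Usp7, which acts on both, differed by -0.10 (SE 0.13), and its 4 probe sets lay between -0.10 and 0.03. Usp2, an enzyme with daily rhythms in many tissues, had 0.29, 0.60 and 1.36 as lowest, median and highest in recuperated animals, against 0.04, 0.45 and 0.74 in control animals. Its difference of 0.30 (SE 0.19) did not pass the exact two-sided permutation test (p = 0.175), and its other probe set was at -0.06.

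Among the members, 2 deubiquitinases trim ubiquitin from proteins that arrive at the proteasome. Usp14 was among the steadiest members, with 5.58, 5.73 and 5.88 in recuperated animals against 5.42, 5.68 and 5.84 in control animals. Its difference was 0.06 (SE 0.11), and its 95% confidence interval of -0.17 to 0.29 lay within 1.3-fold. Uchl5 had 2.88, 3.42 and 3.71 in recuperated animals against 2.81, 3.18 and 3.41 in control animals. Of 6 recuperated animals, 3 exceeded the control range, and the difference of 0.25 (SE 0.15) gave p = 0.123 in an exact two-sided permutation test. Without array 4 of the recuperated group it was 0.19.

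Deubiquitinases known for roles in neurons showed no called difference. Uchl1 differed by -0.04 (95% confidence interval -0.34 to 0.27), which lay within 1.3-fold. Usp9x, a large X-linked enzyme needed for neuronal development in mice, differed by 0.07 (95% confidence interval -0.19 to 0.32). Usp46, which acts on glutamate receptors in worms and in rodent neurons, had 1.77, 2.06 and 2.32 in recuperated animals against 2.01, 2.34 and 2.62 in control animals. The lowest 3 recuperated animals lay below the control range, the difference was -0.25 (SE 0.14, exact two-sided permutation p = 0.078), and its 3 probe sets lay between -0.25 and -0.08. Usp1 and Usp12, which share with Usp46 the activating partner Wdr48, differed by 0.10 (SE 0.27) and -0.07 (SE 0.13). Usp12 was added for that partnership after its value was seen.

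Other deubiquitinases with textbook roles lay close to 0 or spread widely. Usp5, which takes free ubiquitin chains apart, differed by 0.08 (SE 0.13). Uchl3, which also processes the ubiquitin-like protein Nedd8, differed by -0.10 (SE 0.18). Usp8, an endosomal enzyme, differed by 0.21 (SE 0.18) on its brightest probe set, while its other 2 were at -0.11 and -0.47. The last value rested on 1 array, with control animal 6 at 2.65, and was 0.13 without it. Otud7b, an OTU enzyme that restrains NF-kB signalling, had the widest spread over the 12 arrays of the deubiquitinases, with an SD of 0.55. Its values ran from 0.51 to 2.35 in recuperated animals and from 0.83 to 2.15 in control animals.

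The 1 called member was Ube2s, an E2 enzyme that lengthens ubiquitin chains on targets of the anaphase-promoting complex. Recuperated animals had 1.80, 1.41, 1.35, 2.22, 1.71 and 1.60, against 2.01, 2.15, 1.81, 2.32, 1.87 and 2.89 in control animals. Of the 6 recuperated animals, 5 lay below every control animal, and recuperated animal 4 lay inside the control range. The mean was 1.68 ± 0.31 in recuperated and 2.18 ± 0.40 in control animals (SD, n = 6 each), a difference of -0.49 (SE 0.20, 95% confidence interval -0.91 to -0.07), or 1.41-fold lower. The unadjusted limma P was 0.0247, the adjusted p 0.999, and the exact two-sided permutation p 0.0346.

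The call on Ube2s rested on single animals and on 1 probe set. It was lost without control animal 6 (-0.35), without recuperated animal 2 (-0.44) and without recuperated animal 3 (-0.43), while without recuperated animal 4 the difference was -0.60. A second probe set, 1397566_at, lay below the array median on all 12 arrays and differed by -0.19 (SE 0.20). With the mean of both probe sets the difference was -0.34, short of 1.3-fold. Ube2c, the E2 enzyme that starts the chains which Ube2s extends, had -2.31, -1.87 and -1.55 in recuperated animals against -2.14, -1.62 and -1.18 in control animals. Its difference of -0.25 (SE 0.18) gave p = 0.199 in an exact two-sided permutation test.

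**Figure D3:**
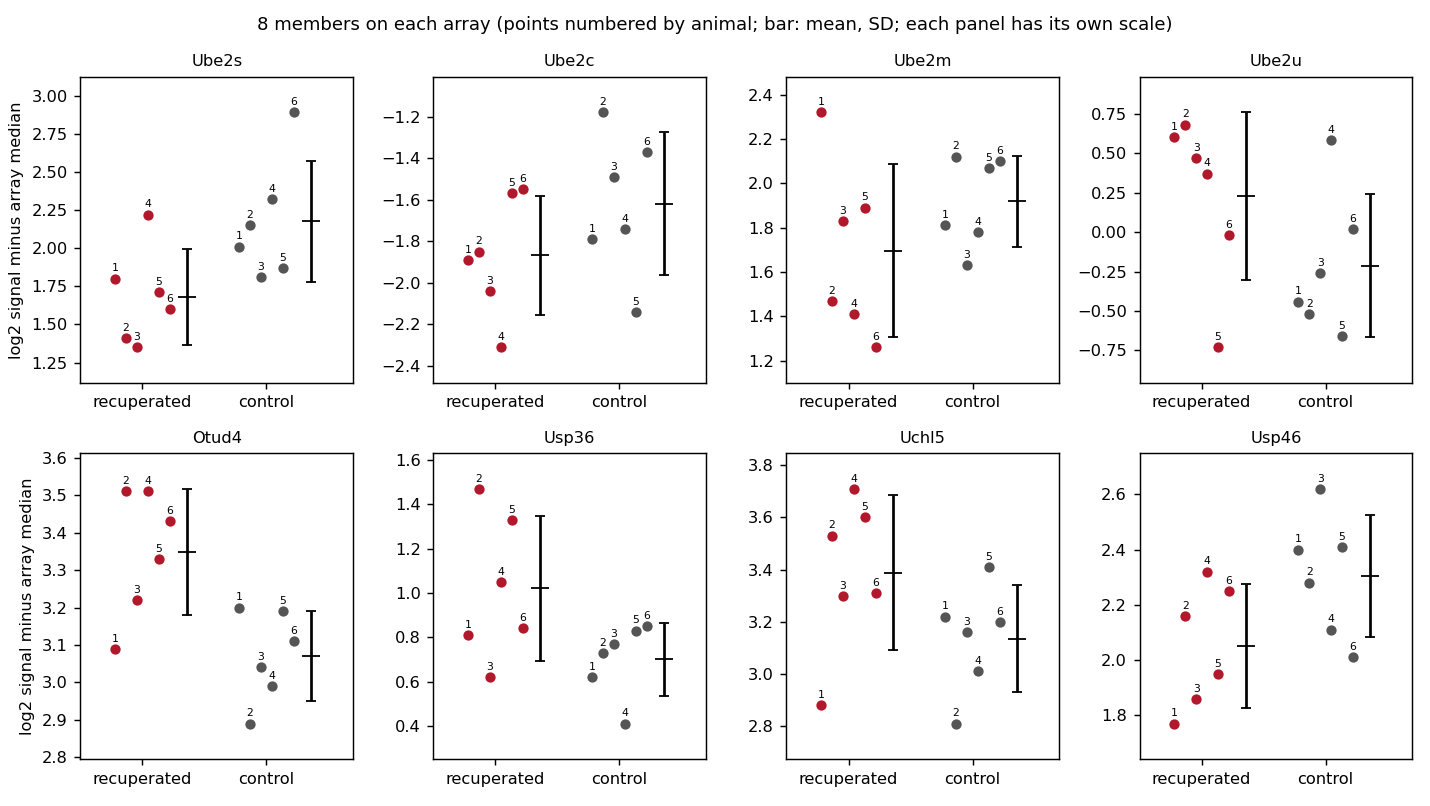
Log2 signal minus array median of 8 members in 6 recuperated (red) and 6 control (grey) animals, with points numbered by animal and bars for mean and SD; each panel has its own scale. Ube2s averaged 1.68 in recuperated and 2.18 in control animals, and in each of the 8 panels the groups overlap.

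Ube2u had the largest positive difference of the conjugating enzymes and one of the widest spreads. Recuperated animals had 0.60, 0.68, 0.47, 0.37, -0.73 and -0.02, against -0.44, -0.52, -0.26, 0.58, -0.66 and 0.02 in control animals. Both groups spanned most of the range, so the difference of 0.44 (SE 0.26) was past 1.3-fold in size but gave p = 0.158 in an exact two-sided permutation test. Without recuperated animal 5 it was 0.63 and without control animal 4 it was 0.60, and in both cases it passed the threshold.

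The E2 enzymes of Nedd8, a ubiquitin-like protein that switches on cullin ligases, were not called. Ube2m had 1.26, 1.65 and 2.32 in recuperated animals against 1.63, 1.94 and 2.12 in control animals. The lowest 3 recuperated animals lay below the control range and 1 above it, and the difference was -0.22 (SE 0.18, exact two-sided permutation p = 0.245). Ube2f differed by 0.02 (95% confidence interval -0.24 to 0.28), within 1.3-fold.

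No call was made among the E2 enzymes that serve many ligases. Ube2a and Ube2b, the homologues of yeast Rad6, each differed by -0.01, and for both the 95% confidence interval lay within 1.3-fold. Ube2a was the least variable conjugating enzyme, with 3.02, 3.30 and 3.44 in recuperated animals against 3.21, 3.25 and 3.44 in control animals. The widely used Ube2d2 differed by -0.03 (SE 0.16). Its relative Ube2d1 had 3.09, 3.36 and 3.86 in recuperated animals against 3.41, 3.53 and 3.72 in control animals. The lowest 4 recuperated animals lay below the control range and animal 4 above it, with a difference of -0.12 (SE 0.13, 95% confidence interval -0.41 to 0.17), or -0.21 without recuperated animal 4. Ube2r2, of the Cdc34 type that serves cullin ligases, differed by -0.04 (SE 0.13). Ube2l3, a partner of parkin, differed by -0.06 (95% confidence interval -0.30 to 0.17), and its 2 probe sets differed by 0.01 from each other.

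The brightest probe sets of E2 enzymes with specialised tasks were not called. Ube2n and its partner Ube2v2, which together build signalling chains, differed by -0.03 (SE 0.15) and -0.08 (SE 0.13), both with intervals within 1.3-fold. Of the enzymes of endoplasmic reticulum quality control, Ube2g2 differed by 0.02 (SE 0.14) on its brightest probe set and by 0.33 (SE 0.19) on its other. Ube2j2 differed by -0.06 (SE 0.11) and Ube2j1 by 0.19 (SE 0.22, 95% confidence interval -0.28 to 0.66). The Ube2j1 difference was 0.03 without array 4 of the recuperated group. Ube2k, an E2 enzyme of chains for the proteasome, differed by -0.03 (SE 0.12) on its brightest probe set, while its other 3 lay at 0.25, 0.25 and 0.38, the last past the threshold. Ube2z, which takes ubiquitin from the E1 enzyme Uba6, differed by 0.02 (SE 0.12), and Ube2t, of the Fanconi anaemia pathway, by -0.09 (SE 0.22).

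The pair that handles Isg15, an interferon-induced ubiquitin-like protein, varied more between animals than between groups. Ube2l6, its E2 enzyme, ran from 0.49 to 1.87 in recuperated animals and from 0.71 to 1.95 in control animals, with a difference of 0.03 (SE 0.27). Usp18, which removes Isg15, ran from -1.15 to -0.19 in recuperated animals and from -0.68 to 0.05 in control animals, with a difference of -0.11 (SE 0.19). Both genes had their lowest value of all 12 arrays on array 4 of the recuperated group, the array with the lowest microglial markers. Isg15 itself was also lowest there. It was not called, with a difference of -0.33 (SE 0.30), or -0.12 without that array. The part of the microglial markers in these values was not tested.

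Array 4 of the recuperated group moved with many members. On it 21 of the 84 members (25%) had their highest value of the 12 arrays, against 12.5% of all genes, and 8 (9.52%) their lowest, against 19.4% of all genes. The mean over the 55 deubiquitinases was 1.93 on it, against 1.66 to 1.83 on the other arrays. The mean over the 29 conjugating enzymes was 2.48 on it and 2.37 to 2.51 on the others. This was also the array with low ARC markers and high VMN and neuronal markers, and the part of these in the result was not tested. Leaving the array out turned the sign of 11 members, among them Usp18 (-0.11 with it, 0.02 without) and Ube2t (-0.09 with it, 0.01 without). Without it Ube2l6 was at 0.19, Otud7b at 0.08, Uchl3 at -0.19, Ube2c at -0.16, Usp2 at 0.38 and Usp5 at 0.14. Usp31 and Otud1, which are given here because their values were seen to depend on this array, differed by -0.10 and -0.09 with it and by -0.31 and -0.29 without it.

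**Figure D4:**
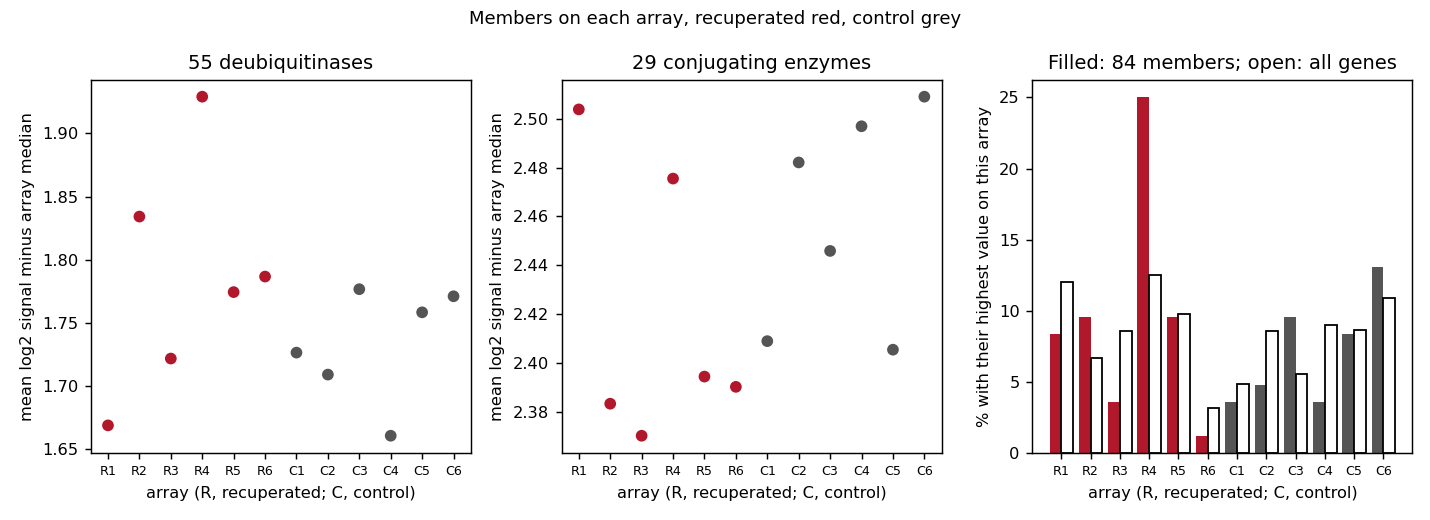
Mean log2 signal minus array median of the 55 deubiquitinases (left) and the 29 conjugating enzymes (middle) on each array, and the percentage of members (filled bars) and of all genes (open bars) with their highest value on that array (right); recuperated arrays (R) are red and control arrays (C) grey. Array R4 has the highest deubiquitinase mean, 1.93, and the highest value of 25% of the members.

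Counting each of the 151 probe sets on its own, 4 (2.65%) were called, where 2.47% of all probe sets were. Of these, 2 were higher (1.2% of all probe sets), 1 of Usp24 at 0.48 and 1 of Ube2k at 0.38, and 2 were lower (1.27% of all probe sets), 1384767_at of Usp42 and the brightest of Ube2s. Usp24 is named because its probe set was called. In each of these 4 genes at least 1 other probe set was not called. When each array was left out in turn, the difference of the Usp24 probe set went as low as 0.35 and that of the Ube2k probe set as low as 0.30, both short of 1.3-fold. Of the 42 members with more than 1 probe set, 25 had probe sets of differing sign and 17 had probe sets of 1 sign. The spread between the probe sets of a gene had a median of 0.21 over these members, and 0.19 over all genes with more than 1 probe set. After Usp42, the widest spreads were 0.75 for Usp40 (named for that rank) and 0.68 for Usp8. Without control animal 6 the Usp8 spread was 0.41, while the Usp42 spread lay between 0.75 and 1.07 when each array was left out in turn. The Usp42 spread is a description here too, as the gene was singled out with earlier results known.

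**Figure D5:**
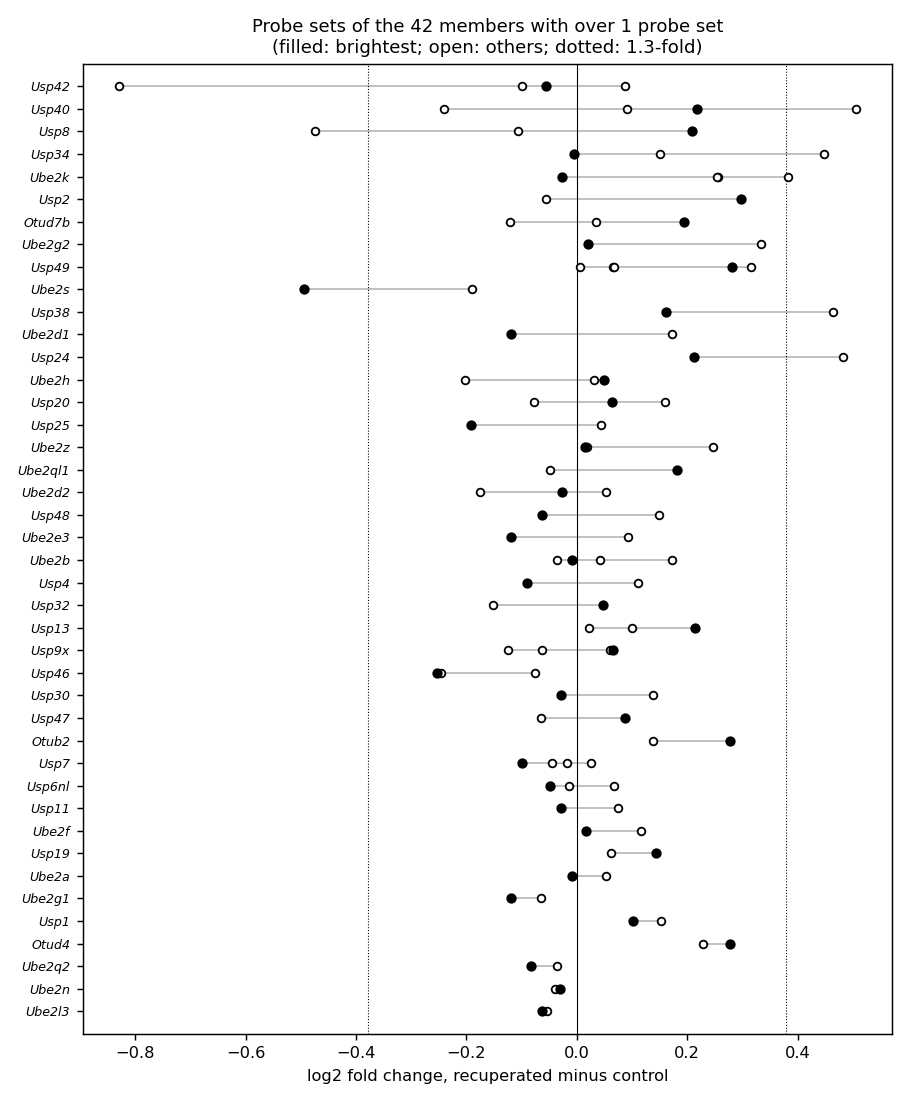
Every probe set of the 42 members with more than 1, placed by its log2 difference between recuperated and control animals (recuperated minus control), with the brightest filled, the others open and dotted lines at 1.3-fold. The 4 Usp42 probe sets span 0.92, the widest of the 42 members, whose median span was 0.21.

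Of 53 other genes of the ubiquitin pathway, 44 were measured. Of these, 0 were called higher, where 0.612% of all genes were, and 1 (2.27%) was called lower, where 1.21% of all genes were. That gene was Mindy1, a deubiquitinase that prefers long chains in human cells. It had -1.09, -0.74 and -0.67 in recuperated animals against -0.92, -0.36 and -0.15 in control animals. Its difference was -0.39 (SE 0.14), with an adjusted p of 0.999 in limma and p = 0.0173 in an exact two-sided permutation test, and its signal was below the array median. Without array 4 of the recuperated group it was -0.37, short of 1.3-fold. Vcpip1, a deubiquitinase that works with the ATPase VCP, differed by 0.36 (SE 0.16), short of 1.3-fold, and is named after its value was seen. The E1 enzyme Uba1 differed by 0.12 (SE 0.12), or 0.05 without that array, and Nedd8 itself by -0.06 (SE 0.10). By list, 5 of 8 activating enzymes, 9 of 20 other deubiquitinases, 3 of 6 SUMO and Nedd8 proteases, 1 of 6 ubiquitin-like modifiers and 0 of 4 other conjugating enzymes were higher on average in recuperated animals. The ubiquitin precursor genes were not analysed here.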

How the data were processed

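RNA from the laser-captured ARC of 6 recuperated and 6 control rats was amplified and hybridised to Affymetrix arrays, 1 per animal. The authors deposited log2 expression values made with RMA. Affymetrix Expression Console stands beside RMA in the submitters' processing notes, whereas the methods describe RMA in GeneSpring GX; the versions of RMA and the Console are not given in the sources used here. RMA normalizes probes over all arrays together, so a shift shared by most probe sets is removed.

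From the deposited log2 values the 57 control probe sets were left out and each array's median was subtracted. Differences were fitted over 31042 probe sets in limma 3.58.1 (lmFit, then eBayes; R 4.3.3), without covariates, with Benjamini-Hochberg adjustment over them all. For single genes, all 924 arrangements of the arrays gave an exact two-sided permutation p, which cannot fall below 0.00216. Figures were drawn with Python 3.11.15 and matplotlib 3.10.9. The fit was tested on simulated data. The number of arrays limits the precision.

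Symbols came from the platform annotation, and 84 of 84 members had the same symbol in RefSeq. Otub1, Otulin, Ube2v1, Ube2d3 and Ube2e1 were not analysed here. Coordinates and sequences are left out, as the sources name no build for the arrays. Members, gene lists and named genes were chosen with earlier results of these data known. Named genes were Usp42, genes with well-known roles and genes drawn from a list per class. Each list held the 6 higher and 6 lower members with the smallest P and called members. It also held those nearest the threshold and those of largest or smallest SD. Genes named from outside these lists are stated, but not every listed gene is discussed. Among those left out, none of them called, were Otud5 (-0.14), Usp25 (-0.19), Usp44 (-0.10) and Usp20 (0.06). Left out likewise were Ube2ql1 (0.18), Ube2h (0.05), Ube2e3 (-0.12) and Ube2q1 (-0.11). Alternatives were no median subtraction, quantile normalization, the methods' t-test, leaving out dim probe sets, array weights, a replicate block, leaving out each array, averaging a gene's probe sets and means of linear values. Same-numbered animals did not deviate together, with correlations between -0.16 and 0.08, and the labels tie the numbers to nothing shared.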

Additional observations from a re-analysis of the deposited data

Results flagged for a closer look

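Among the 168 groups of 6 values, 7 (4.17%) held an animal far from the other 5, and chance alone flags about 5% of groups. In recuperated animals, Otud7b was 0.51 in animal 1, with the others between 1.84 and 2.35. Ube2o, a large enzyme that joins E2 and ligase functions, was 3.93 in recuperated animal 4, with the others between 3.30 and 3.48. Recuperated animal 5 had 0.97 for Usp21, with the others between 1.67 and 2.09, and 0.57 for Usp54, with the others between 1.18 and 1.53. In control animals, animal 6 stood out 3 times. It had 3.85 for Ube2b, with the others between 4.13 and 4.29, it had -2.24 for Ube2t, with the others between -3.40 and -3.01, and it had 1.03 for Usp40, with the others between 0.67 and 0.80. Usp21 and Usp40 are named here because of these values.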

How the results depend on the processing

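Over the alternatives run, the deubiquitinase median stayed between 0.03 and 0.07 and the conjugating enzyme median between -0.06 and -0.02. The counts of called genes were small enough for 1 gene to move them. Called higher among deubiquitinases were 0 genes in the reported setting, 1 with array quality weights (Usp40, 0.40), 1 with every probe set counted on its own, an alternative chosen after seeing the data, and 0 to 1 when each array was left out in turn (Usp49 at 0.40 without control animal 6, Usp36 at 0.40 without recuperated animal 3 and Otud3, named for that call, at 0.43 without recuperated animal 6). Called lower were 0 deubiquitinases, 1 with every probe set counted and 0 to 1 on leaving out arrays (Usp3, -0.40, without recuperated animal 6). Among conjugating enzymes, called higher were 0 genes, 1 with every probe set counted and 0 to 1 on leaving out arrays (Ube2u). Called lower was 1 gene, 0 when a gene's probe sets were averaged and 0 to 1 on leaving out arrays. The cause of these shifts was not tested. With that averaging, Ube2k was at 0.22 and Usp8 at -0.12. With the replicate block 0 genes were called higher and 1 lower in the 2 classes together, as without the block. Ube2s kept its sign in each of the 20 alternatives run on it, between -0.60 and -0.34, while up to 14 members, none of them called, changed sign when a gene's probe sets were averaged. Over all probe sets, 371 were called higher and 395 lower, against 434 and 302 without median subtraction, 447 and 313 with quantile normalization, 118 and 150 with the filter on dim probe sets and 243 and 263 with the methods' t-test. Without recuperated animal 1, 622 were called lower.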
